A study of Homo sapiens with 3 samples.

Results

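RNA bound by CSTF2tau was examined on the transcripts of 10 RNA-binding protein genes, namely ELAVL1, ELAVL2, ELAVL3, ELAVL4, RBFOX1, RBFOX2, NOVA1, MSI2, QKI and PTBP2. They were picked by name as regulators of RNA processing known from neurons, and their peaks were found by the Ensembl gene ID at the start of each peak name. The 10 gene IDs were among 13356 with at least 1 peak. The replicate 1 list assigned 539 of 105203 peaks to them, the replicate 2 list 70 of 18346 and the replicate 3 list 297 of 78761. The deposited lists do not pair gene IDs with symbols, so the symbols are those given with the IDs. For 10 of the 10 symbols, the RefSeq gene table (GRCh38.p14) gives the chromosome on which the peaks of that ID lie.

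CSTF2tau is a paralogue of CSTF2, the part of the cleavage stimulation factor that holds the RNA. The factor contacts GU-rich RNA downstream of mRNA cleavage sites. The method, sCLIP, crosslinks protein to RNA in living cells with ultraviolet light, digests the RNA in part and sequences the fragments recovered with an antibody. All libraries came from wild-type BE(2)-C cells, an established clonal neuroblastoma line, immunoprecipitated with an antibody against CSTF2tau. The study had 1 group of 3 biological replicates, and neither an input nor a control antibody was analysed here. RNA abundance was not measured in these libraries, so more RNA of a gene and more binding per RNA molecule cannot be told apart.

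The genes encode proteins with distinct roles. ELAVL1 (HuR) is a widely expressed protein that binds AU- and U-rich RNA and stabilises mRNAs, while ELAVL2, ELAVL3 and ELAVL4 (HuB, HuC and HuD) are its relatives in neurons. RBFOX1 and RBFOX2 are splicing regulators that recognise GCAUG, NOVA1 is a neuronal splicing regulator that binds YCAY motifs, and PTBP2 is the neuronal relative of the polypyrimidine tract binding protein. MSI2 (Musashi) regulates translation in stem and progenitor cells, and QKI, a STAR family protein, acts in splicing and mRNA stability and is known for its part in myelination. Transcripts of many splicing factors carry long introns and are themselves alternatively processed.

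A read is the last number in each peak name, taken here as the reads in the peak. The lists held 736059, 108434 and 387784 such reads in replicates 1, 2 and 3, which sum over listed peaks only, so that the sequencing depth is unknown. Peaks had at least 3 reads and a median of 5, 4 and 4. The minus strand carried 63.2% of the nuclear reads of replicate 3, while it carried 48.8% and 50.6% of those of replicates 1 and 2. Replicate 1 was also named differently, with a 1-digit version after every gene ID, while 59.5% and 56.9% of the peaks of replicates 2 and 3 had one. Intervals are exact Clopper-Pearson intervals at the 95% level and cover counting error between reads only.

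The first question was how much of the recovered RNA came from each transcript. MSI2 and RBFOX2 had the highest mean shares, and ELAVL2 and NOVA1 the lowest. The 10 transcripts summed to 0.616%, 0.306% and 0.428% of all listed reads in the 3 replicates, averaging 0.450% ± 0.156 (SD, n = 3). MSI2 and RBFOX2 gave 73.9%, 65.1% and 59.5% of these reads, and MSI2 alone gave 49.8%, 58.4% and 30.4%. In replicate 2 RBFOX2, with 22 reads, lay below ELAVL1 with 43 and ELAVL3 with 34. Peaks were listed in all 3 replicates for 8 of the 10, against 33.0% of all gene IDs. The median mean share was 0.0194% over the 10 transcripts and 0.00195% over all gene IDs.

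MSI2 (ENSG00000153944, plus strand, chr17:55334083-55762009 in hg19 from first to last listed peak) had 2258, 194 and 505 reads in replicates 1, 2 and 3, in 259, 43 and 101 peaks. Its share of the reads was 0.307% (95% interval 0.294 to 0.320%), 0.179% (0.155 to 0.206%) and 0.130% (0.119 to 0.142%), a mean of 0.205% ± 0.0912 (SD, n = 3). By mean share MSI2 ranked 32 among the 13356 gene IDs, and by replicate it ranked 18, 71 and 57. It was the highest of the 10 transcripts in each replicate, and the 3 intervals did not overlap.

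RBFOX2 (ENSG00000100320, minus strand, chr22:36134824-36424188) followed with 1096, 22 and 484 reads. They made up 0.149%, 0.0203% and 0.125% of each list and averaged 0.0980% ± 0.0684 (SD, n = 3). Replicate 2 stood apart: the shares of the other replicates predict 135 to 161 reads there, against the 22 listed. MSI2 was above RBFOX2 in 3 of 3 replicates, by a mean log2 difference of 1.41 ± 1.57 (SD, n = 3), so the order held while the size of the difference varied. With 3 replicates an exact sign-flip test of any such pair cannot give a p below 0.25, and none was run.

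PTBP2 (ENSG00000117569, plus strand, chr1:97192969-97284366) had 424, 22 and 185 reads and a mean share of 0.0419% ± 0.0193 (SD, n = 3). It too was low in replicate 2, with 0.0203% against 0.0576% and 0.0477% in replicates 1 and 3. ELAVL3 (ENSG00000196361, minus strand, chr19:11562809-11591263) had 262, 34 and 209 reads and a mean share of 0.0403% ± 0.0120. The order of PTBP2 and ELAVL3 differed between replicates, and their ranges overlapped.

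ELAVL3 shared its region with a second gene ID. In replicates 1, 2 and 3, 144 of 262, 29 of 34 and 160 of 209 ELAVL3 reads lay in peaks that overlapped a peak of ENSG00000267477 on the same strand. The reads of these peaks cannot be assigned to either ID from the lists. Without them the mean ELAVL3 share was 0.0111%.

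ELAVL1 was the one transcript whose share was higher in replicate 2 than in both other replicates. The ELAVL1 peaks (ENSG00000066044, minus strand, chr19:8023411-8069129) had 140, 43 and 69 reads, or 0.0190% (95% interval 0.0160 to 0.0224%), 0.0397% (0.0287 to 0.0534%) and 0.0178% (0.0138 to 0.0225%). The mean was 0.0255% ± 0.0123 (SD, n = 3). The interval of replicate 2 lay above both others, and the listed 43 reads there stand against 19.3 to 20.6 predicted from the other replicates.

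QKI (ENSG00000112531, plus strand, chr6:163844509-163994934) had the smallest spread relative to its mean among the 8 transcripts listed in all 3 replicates, with 105, 11 and 60 reads, or 0.0143%, 0.0101% and 0.0155%. Its mean was 0.0133% ± 0.00279 (SD, n = 3), and the highest share was 1.53 times the lowest. ELAVL1 exceeded QKI in 3 of 3 replicates with ranges that did not overlap, the only neighbours in the order of shares of which this held.

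ELAVL4 (ENSG00000162374, plus strand, chr1:50515218-50669262) had 128, 3 and 55 reads. Its shares of 0.0174%, 0.00277% and 0.0142% averaged 0.0114% ± 0.00769 (SD, n = 3). RBFOX1 (ENSG00000078328, plus strand, chr16:6347966-7476653) had 95, 3 and 31 reads and a mean share of 0.00789% ± 0.00507. In replicate 2 each of them had a single peak of 3 reads, the smallest that was listed. RBFOX1 also shared peaks with another gene ID, ENSG00000260411, under which 15 of its 23, 1 of its 1 and 4 of its 8 peaks were listed at the same coordinates. Without these its mean share was 0.00287%.

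NOVA1 and ELAVL2 had no listed peak in replicate 2. NOVA1 (ENSG00000139910, minus strand, chr14:26918523-27062097) had 14 reads in 2 peaks in replicate 1 and 58 reads in 12 peaks in replicate 3, or 0.00190% and 0.0150%. Its mean of 0.00562% was 0.000951% without replicate 3. ELAVL2 (ENSG00000107105, minus strand, chr9:23729561-23813504) had 14 reads in 3 peaks and 5 reads in 1 peak, or 0.00190% and 0.00129%, and its mean of 0.00106% was 0.000645% without replicate 1. The shares of the other replicates predict 1.40 to 2.06 ELAVL2 reads in replicate 2, and the smallest listed peak has 3 reads. For NOVA1 the prediction was 2.06 reads from replicate 1 and 16.2 from replicate 3.

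**Figure D1:**
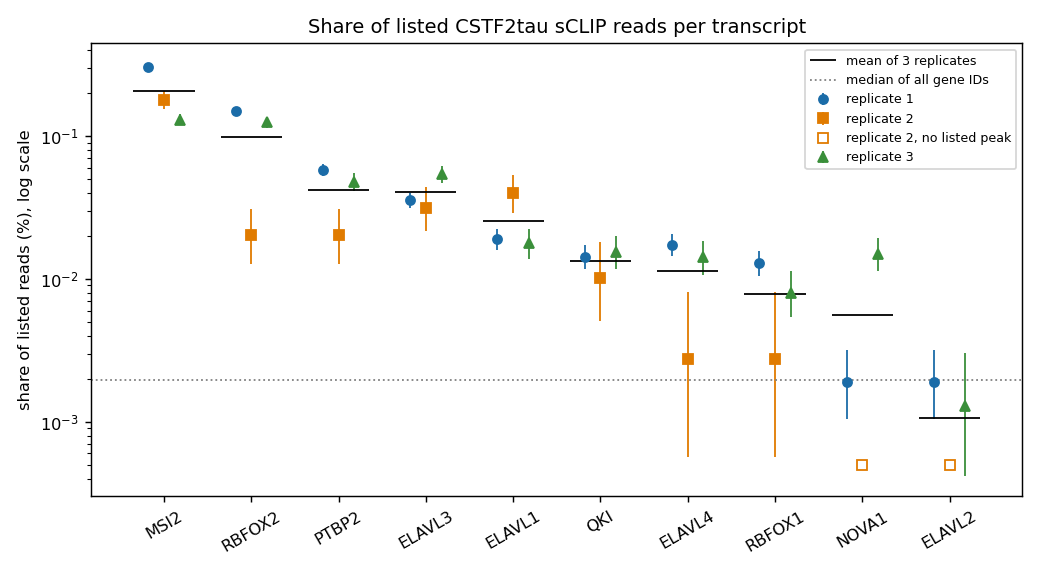
Share of listed reads (%, log scale) of each of the 10 transcripts, 1 point per replicate with its exact 95% interval. Horizontal bars mark the mean of 3 replicates, the dotted line the median mean share of all gene IDs (0.00195%), and open squares, placed at an arbitrary low level, mark NOVA1 and ELAVL2 in replicate 2, which had no listed peak. MSI2 is highest in each replicate, and replicate 2 is low for RBFOX2 and PTBP2 and high for ELAVL1.

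Long transcripts offer more places for a peak, so levels were also compared per length. The listed span of a gene ID is the distance between the outer edges of its outermost peaks in any replicate, and density is the reads per kb of this span per 1000000 listed reads. On this scale the order changed: ELAVL3 and ELAVL1, the shortest regions, came first and RBFOX1, the longest, came last. The median density over the 9 transcripts with at least 5 loci was 3.39, and 1.35 over 7095 gene IDs with as many loci.

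ELAVL3, over 28.5 kb, had a density of 12.5 in replicate 1 and 18.9 in replicate 3, was lowest in replicate 2, and averaged 14.2 ± 4.21 (SD, n = 3). It lay above ELAVL1 in 3 of 3 replicates without overlap. Without the reads of peaks that overlap the second gene ID its mean density was 3.90, below that of ELAVL1. This value was still divided by the full 28.5 kb, so it is not directly comparable with the ELAVL1 density. ELAVL1, over 45.7 kb, had 4.16, 8.67 and 3.89, a mean of 5.58 ± 2.69.

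MSI2, over 428 kb, had a mean density of 4.80 ± 2.13, PTBP2, over 91.4 kb, 4.58 ± 2.12, and RBFOX2, over 289 kb, 3.39 ± 2.36 (SD, n = 3 each). The ranges of ELAVL1, MSI2, PTBP2 and RBFOX2 overlapped from each neighbour to the next. MSI2 thus held many reads over a long region, at a density above that of 85.7% of the gene IDs compared.

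QKI had a density of 0.884 ± 0.186 over 150 kb and ELAVL4 0.743 ± 0.499 over 154 kb (SD, n = 3 each), both below the median of all gene IDs. NOVA1 had 0.391 ± 0.567 over 144 kb. RBFOX1, with 32 peaks scattered over 1129 kb, had 0.0699 ± 0.0449, and 0.606% of the gene IDs compared were lower.

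**Figure D2:**
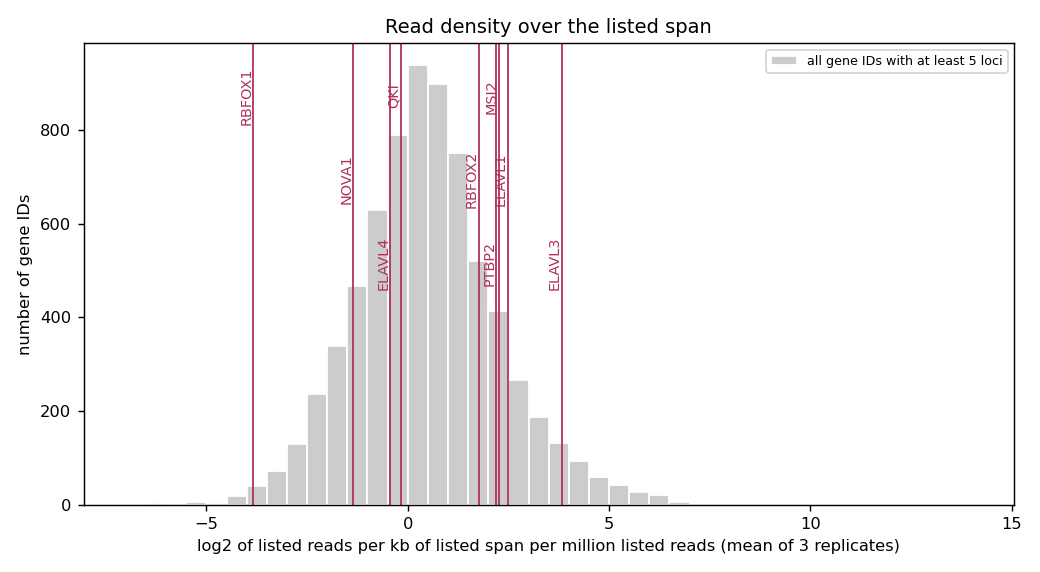
Number of gene IDs (grey bars) by log2 of the listed reads per kb of listed span per 1000000 listed reads, mean of 3 replicates, for the 7095 gene IDs that had 5 or more loci. Vertical lines mark the 9 of the 10 transcripts with as many loci. ELAVL3 stands at the right with 14.2 and RBFOX1 at the left with 0.0699 on the linear scale.

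The second question was whether CSTF2tau was recovered at the same positions in each replicate. Overlapping peaks of a gene ID were merged over the replicates into loci. Of 787 loci on the 10 transcripts, 8 were present in all 3 replicates (1.02%, against 0.882% of all loci). A further 97 were in exactly 2 (12.3%, against 7.66%) and 682 in exactly 1 (86.7%, against 91.5%). In 77 of the 97 the pair was replicates 1 and 3, the larger lists. MSI2 held 5 of the 8 loci, RBFOX2 2 and ELAVL3 1, while the other 7 transcripts held none.

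The MSI2 locus at chr17:55334083-55334166 (hg19, plus strand), 84 nt long, had the most reads of any locus on the 10 transcripts. It had 43, 12 and 10 reads in replicates 1, 2 and 3, or 0.00584%, 0.0111% and 0.00258% of each list, averaging 0.00650% ± 0.00428 (SD, n = 3). It is the 5'-most listed peak of MSI2. The authors' peak lists also give a stretch of 4 nt inside each peak, and these stretches lay within 18 nt of each other over the 3 replicates.

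Within the first decile of the span, 2 further MSI2 loci recurred. They were chr17:55354056-55354178, with 9, 3 and 5 reads, and chr17:55357424-55357616, with 24, 4 and 12. The locus at 55357424 was even across replicates, at 0.00326%, 0.00369% and 0.00310% of each list, averaging 0.00335% ± 0.000307 (SD, n = 3). In the far part of the transcript chr17:55617626-55617715 had 14, 4 and 4 reads. The last was chr17:55758845-55758937, 3.12 kb before the 3' end of the listed span, with 34, 4 and 6.

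On RBFOX2 (minus strand) the locus chr22:36139827-36139998 had 35, 6 and 3 reads and lay 5.09 kb before the 3' end of the listed span. The other, chr22:36272307-36272466, lay near the middle of the span and had 21, 5 and 10 reads, or 0.00285%, 0.00461% and 0.00258%. On ELAVL3 (minus strand) the recurrent locus chr19:11589800-11589919 had 12, 8 and 7 reads, 1.40 kb from the 5' end of the listed span. In each replicate these reads lay in ELAVL3 peaks that overlapped a peak of ENSG00000267477. They cannot be assigned to either ID.

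Many of the deepest loci were missing from replicate 2. That list had the fewest reads and no peak below 3 reads, so a locus of low share could go unlisted there. ELAVL3 had 42 reads in replicate 1 and 19 in replicate 3 at chr19:11588530-11588673, and none in replicate 2. The ELAVL3 reads at this locus also lay in peaks that overlapped a peak of ENSG00000267477. ELAVL1 had 40 and 5 at chr19:8041771-8041892, and ELAVL4 had 23 and 6 at chr1:50649942-50650070, again with none in replicate 2. The deepest PTBP2 locus, chr1:97269465-97269642, had 22 and 8 reads. The deepest locus of QKI, with 33 reads at chr6:163992582-163992773, was listed in replicate 1 alone.

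The transcripts with few reads gave no recurrent positions. None of the 32 RBFOX1 loci, 14 NOVA1 loci or 4 ELAVL2 loci was found in more than 1 replicate, against 8.54% of all loci. With so few loci and so low a share, this absence does not set these transcripts apart. Their deepest loci had 7 reads at chr16:6722299-6722455 (RBFOX1), 11 at chr14:26938332-26938509 (NOVA1) and 7 at chr9:23769657-23769717 (ELAVL2).

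Loci with more reads were found again more often, on these transcripts as over all gene IDs. Of 155 loci with 3 to 4 reads in replicate 1, 7.10% were also in another replicate (95% interval 3.60 to 12.3%), against 7.19% over all gene IDs. Of 39 loci with at least 20 reads, 64.1% were (47.2 to 78.8%), against 45.0%. In replicate 3, 25.5% of 145 loci with 3 to 4 reads were found again (18.6 to 33.4%), against 9.95% over all gene IDs. Loci of 1 transcript share that transcript's abundance and are not replicates, so the difference was given no test.

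**Figure D3:**
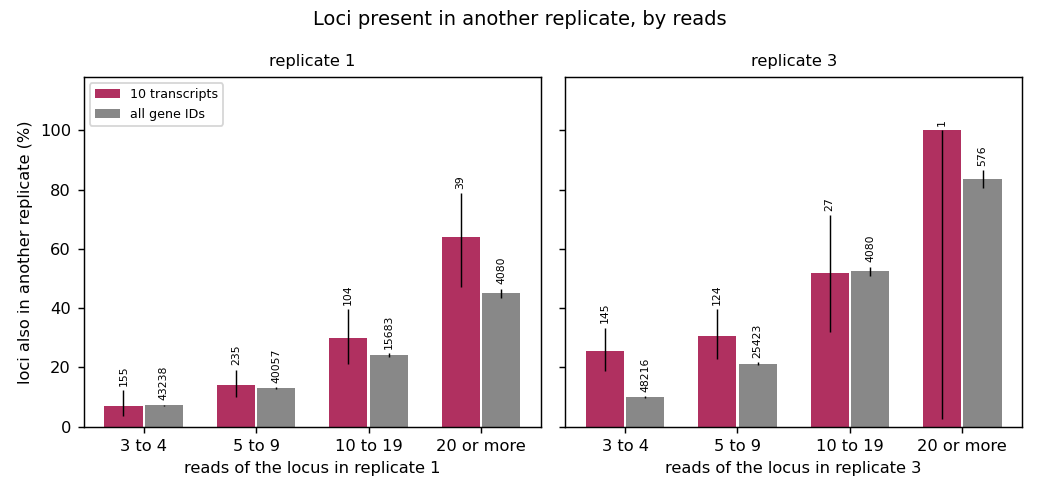
Percentage of loci also present in another replicate, by the reads of the locus in replicate 1 (left panel) and replicate 3 (right panel), for the 10 transcripts and for all gene IDs. Error bars are exact 95% intervals for counting error, and the number of loci stands above each bar. The share rises with reads in both sets, to 64.1% and 45.0% for loci with at least 20 reads in replicate 1.

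The third question was where along the transcripts the reads lay, since CSTF2tau belongs to a factor that acts at mRNA 3' ends. For each gene ID with at least 5 loci and 10 reads at both ends together, the last 10% of the listed span (3' end) was set against the first 10% (5' end) in reads, by an exact two-sided binomial test. Benjamini-Hochberg adjustment ran over all 6382 gene IDs tested, and a call needed an adjusted p below 0.05 and no replicate with end reads that tied or went the other way. Of the 9 transcripts tested, 3 were called with an excess of 3' reads (QKI, PTBP2 and ELAVL4), against 18.1% of all gene IDs. At the 5' end 3 were called (MSI2, RBFOX1 and NOVA1), against 14.1% of all gene IDs. ELAVL1, ELAVL3 and RBFOX2 were not called, and ELAVL2 had too few loci. The median log2 ratio was -0.45 over the 9 transcripts and 0.18 over all gene IDs tested. Reads of 1 peak are not independent and the outermost peaks need not lie at annotated transcript ends, so these tests cover counting error only.

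MSI2 had a different pattern in its outer deciles and in its outermost kilobases. In the last 10% of the span it had 254, 44 and 72 reads, against 666, 64 and 119 in the first 10%. The log2 ratio was -1.20 (adjusted p = 4.4e-42, exact binomial test). The direction was the same in 3 of 3 replicates. The first 2 deciles of the span held 41.8%, 36.6% and 36.2% of the MSI2 reads of replicates 1, 2 and 3. In the last 5 kb, 1.17% of the span, it had 178, 20 and 55 reads, or 7.88%, 10.3% and 10.9%. The first 5 kb had 47, 12 and 15 reads. This window, chosen after the data had been seen, turned the log2 ratio to 1.77 (exact binomial test, adjusted p = 1.5e-22). The last 5 kb of MSI2 thus had more reads than the first 5 kb, in 12, 4 and 10 peaks, while the first decile had more than the last, in 67, 12 and 24 peaks.

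RBFOX2 had reads at both ends and in the middle. The last 10% held 196, 9 and 110 reads, against 220, 5 and 46 in the first 10%, and the log2 ratio of 0.22 was not called (exact binomial test, adjusted p = 0.14). Deciles 4 to 6 held 46.9%, 36.4% and 49.4% of its reads. The last 5 kb, 1.73% of the span, held 141, 3 and 51 reads, or 12.9%, 13.6% and 10.5% of the reads of each replicate. The first 5 kb held 88, 5 and 15. Without replicate 1, RBFOX2 was called at the 3' end with a log2 ratio of 1.21 (adjusted p = 2.1e-06, exact binomial test), and without replicate 3 the ratio was -0.13.

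QKI had more reads in the last 10% of its listed span than in the first 10%. Its last 10% had 49, 11 and 18 reads, against 17, 0 and 8 in its first 10%, giving a log2 ratio of 1.62 (adjusted p = 9.4e-07, exact binomial test) with the same direction in 3 of 3 replicates. The last 5 kb, 3.32% of the listed span, held 42 of 105, 11 of 11 and 18 of 60 QKI reads. The 3' edge of the span was itself set by the peaks at chr6:163994843-163994934, with 8 reads in replicate 2 and 5 in replicate 3. Replicate 1 had no peak there. With the 3' 50% of the span set against the 5' 50% the call was lost, with 107 reads against 69 and a log2 ratio of 0.63. Decile 5 held 15 of the 60 QKI reads of replicate 3.

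PTBP2 had most of its reads in a stretch before the 3' end. Deciles 7 to 9 held 71.7%, 86.4% and 83.8% of its reads. All 12 PTBP2 loci found in more than 1 replicate lay within the 9.43 kb at chr1:97260213-97269642 (plus strand), 10.3% of the listed span. The stretch held 219 of 424 reads in replicate 1 and 131 of 185 in replicate 3, but 0 of 22 in replicate 2, whose 19-read peak lay upstream at chr1:97256717-97256796. This stretch was picked because its loci were shared, so its share of reads is a description. The last 10% of the span had 23, 3 and 5 reads, against 3, 0 and 0 in the first 10%, for a log2 ratio of 3.17 (adjusted p = 4.1e-06, exact binomial test). The PTBP2 call was lost without replicate 1, which sets both ends of its listed span (log2 ratio 0.18 from 8 reads against 7). It was also lost when peaks above the median p-value of each list were left out (ratio 0.19 from 24 reads against 21). The listed span was then set anew by the remaining peaks, so the 5' end was another region, with 21 reads in place of 3.

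ELAVL4 had 30 reads in its last 10% and 12 in its first 10%, all of them in replicate 1, with a log2 ratio of 1.29 (adjusted p = 0.020, exact binomial test). Its deciles 9 and 10 held 64.1%, 100% and 34.5% of its reads in replicates 1, 2 and 3, where the 100% is 1 peak of 3 reads. RBFOX1 had 3, 0 and 0 reads at the 3' end, against 27, 3 and 3 at the 5' end, for which the log2 ratio was -3.26 (adjusted p = 1.3e-06, exact binomial test). Without replicate 1, whose last peak sets the 3' end of the RBFOX1 span, the ratio was 1.58 and no longer called (exact binomial test, adjusted p = 0.20). Without peaks above the median p-value it was 0.00, with 11 reads at each end. In each of these alternatives the listed span was set anew by the remaining peaks, so the ends compared were not the same regions. NOVA1 had 0 and 10 reads at the 3' end, against 14 and 19 at the 5' end, in replicates 1 and 3 (log2 ratio -1.67; exact binomial test, adjusted p = 0.0020). The NOVA1 call was lost without replicate 1 (ratio -0.89) and with the outer 20% of the span (ratio -0.58), and it could not be tested without replicate 3 (ratio -0.79).

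In ELAVL3 the replicates went different ways. It had 98, 0 and 13 reads in its last 10%, against 79, 29 and 50 in its first 10%, and was not called although the adjusted p was 0.013 (exact binomial test, log2 ratio -0.51). Without replicate 1 it was called at the 5' end (log2 ratio -2.56; adjusted p = 2.3e-11, exact binomial test). Leaving out the peaks that overlap ENSG00000267477 removed every ELAVL3 peak in deciles 1 to 5, and the listed span was set anew by the remaining peaks. Over that shorter span the log2 ratio was 1.81, from 68 reads against 19 (exact binomial test, adjusted p = 7.3e-07). This ratio compares other regions than the ratio of -0.51. ELAVL1 had 13, 6 and 8 reads at the 3' end, against 21, 0 and 16 at the 5' end, with no call (log2 ratio -0.45; exact binomial test, adjusted p = 0.38). Summed over replicates, the most ELAVL1 reads lay in decile 6, with 40, 14 and 9, but in replicate 3 deciles 1 and 5 had more, with 16 and 15.

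With the outermost 5 kb at each end, 4 of the 7 transcripts tested were called with more reads in the last 5 kb (MSI2, QKI, PTBP2 and ELAVL4), against 18.8% of 4762 gene IDs. None was called with more in the first 5 kb, against 11.7%, although ELAVL3, with 127 reads in its last and 222 in its first 5 kb, had an adjusted p of 2.6e-06 (exact binomial test). It was the 1 transcript with an unadjusted p under 0.05 in that direction, and in replicate 1 it had 98 reads at each end. All ELAVL3 reads in the first 5 kb lay in peaks that overlapped a peak of ENSG00000267477, and cannot be assigned to either ID. For RBFOX2 the last 5 kb had 195 reads against 108, with a log2 ratio of 0.85 (adjusted p = 4.0e-06, exact binomial test), not called because replicate 2 went the other way.

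**Figure D4:**
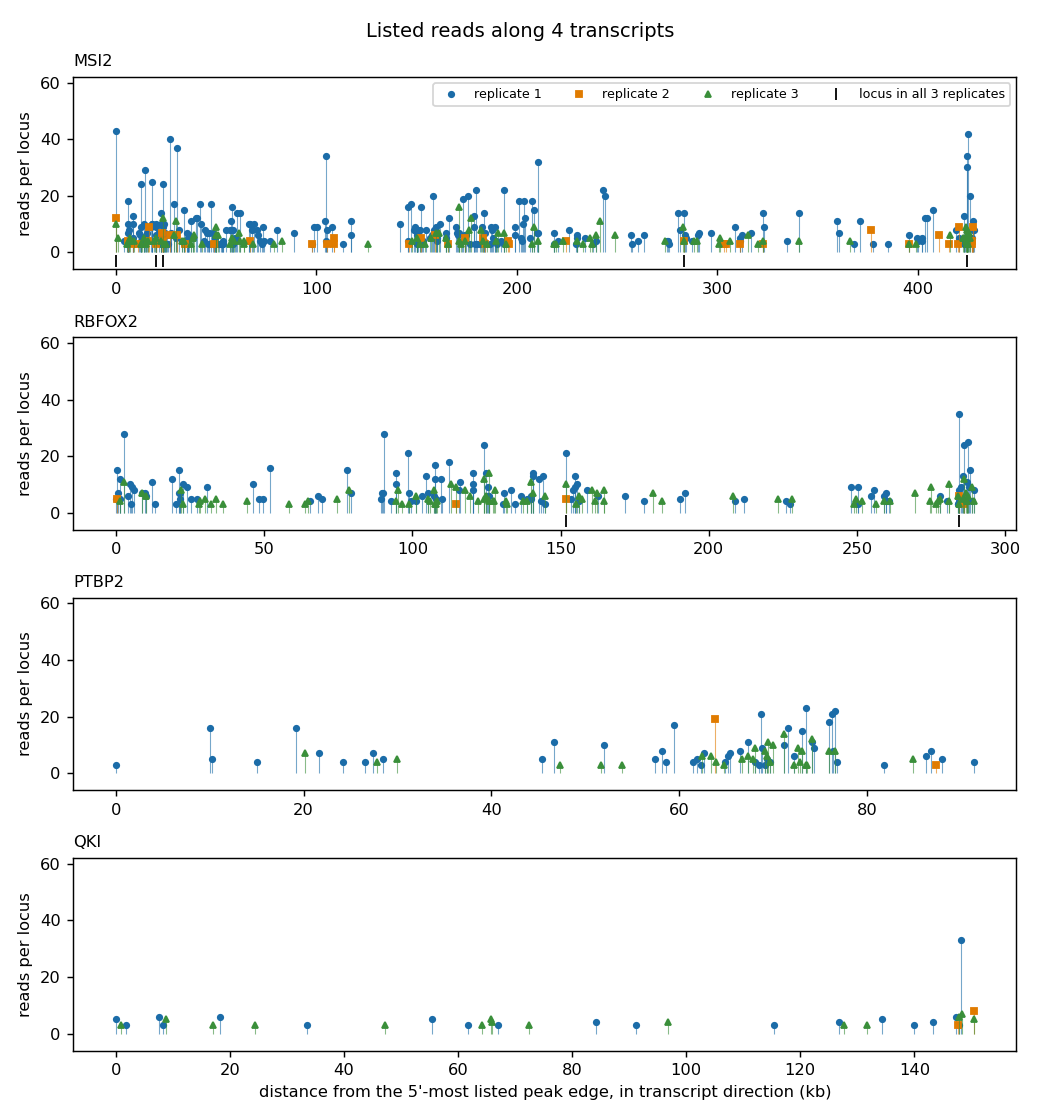
Reads per locus (y axis) of MSI2, RBFOX2, PTBP2 and QKI against the distance in kb from the 5' edge of the listed span in transcript direction (x axis), 1 marker per locus and replicate. Black ticks below the zero line mark loci in all 3 replicates, 5 on MSI2 and 2 on RBFOX2. MSI2 and RBFOX2 have dense peaks at the far right, many PTBP2 reads lie in a stretch of 9.43 kb, and QKI has 40.3% of its reads in the last 5 kb.

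**Figure D5:**
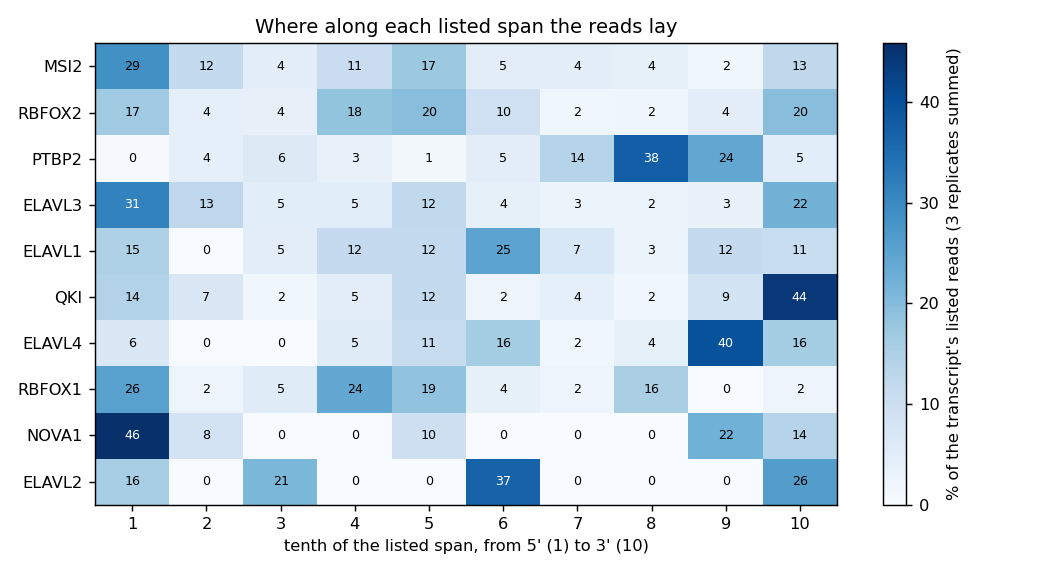
Percentage of the listed reads of each transcript (3 replicates summed) in each decile of its listed span, from the 5' end (1) to the 3' end (10), with transcripts in the order of their mean share. QKI has 44.3% of its reads in the last decile, NOVA1 has 45.8% of 72 reads in the first, and PTBP2 has 75.8% in deciles 7 to 9.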

How the data were processed

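Peak lists of 3 biological replicates were used, 1 per replicate and not pooled. Per the submitters' processing notes, reads were handled on hg19 with a tool set that included STAR, SAMtools, bedtools and FastQC. The peak caller is not given in the sources used here. Column 5 holds the p-value of each peak as deposited by the authors, below 0.05 in each list. Other deposited columns give positions and a name made of a gene ID, a number within that ID and a last number. This last number was read as reads, since it fell as the p-value rose (Spearman's rho -0.988, -0.973 and -0.964 across peaks). Gene IDs were matched before the dot.

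Python 3.11.15, pandas 2.3.3 and scipy 1.17.1 were used. Peaks of a gene ID overlapping by at least 1 nt were merged into loci. Ratios were taken after adding 0.5 reads at both ends. All 10 members are named, with their loci in all 3 replicates and the locus of each with the most reads. Other loci, the PTBP2 stretch and the 5 kb window were chosen after their values were seen. The members and lists were chosen with earlier results of these data known. RefSeq's table held 0 Ensembl IDs, so the planned lists of related genes and cell type markers were not analysed here. No hg19 sequence was used here.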

Additional observations from a re-analysis of the deposited data

Results flagged for a closer look

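The running numbers in the peak names, which the comparisons above did not use, had gaps on these transcripts. Counting from 1 to each transcript's highest number, 44.8%, 73.8% and 62.8% of the numbers were absent from the lists of replicates 1, 2 and 3 (438 of 977, 197 of 267 and 501 of 798). There was no control list to set them against. For MSI2 the highest numbers were 422, 172 and 326, against 259, 43 and 101 listed peaks.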

How the results depend on the processing

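No paired analysis was possible because the labels give 1 group. The summed share of reads stayed within 1 SD of the replicates under each of its alternatives, among them equal weight for both strands and reads per peak limited to 20. The median reads per kb was taken here over all 10 transcripts, at 2.14, while the 3.39 above left out ELAVL2. It stayed within 1 SD when peaks listed under several gene IDs, overlapping peaks or 1 replicate were left out, the alternatives run for it. Among single transcripts, the share of ELAVL3 alone moved further, to 0.0529% with peaks up to the median p-value, 0.0265% of peaks and 0.0111% without overlapping peaks. In the last case its reads per kb, over the unchanged listed span, moved to 3.90. Loci in all 3 replicates numbered 3, against 8, when peaks above the median p-value were dropped, and loci in both remaining replicates numbered 13 to 85 when 1 replicate was left out, with 85 without replicate 2. With merged clusters counted in place of reads, 6 transcripts were tested, while PTBP2, ELAVL4 and NOVA1 had too few end clusters for a test. At the 3' end 0 were called, against 12.9% of 1684 gene IDs. At the 5' end 1, MSI2, was called, against 13.4%. At an unadjusted p under 0.05 (exact binomial test) the counts were 0 and 2. The last against the first 5 kb gave 0 calls at the 5' end. Without peaks above the median p-value the calls of PTBP2 (0.19) and RBFOX1 (0.00) were lost, as were those of NOVA1 with the outer 20% (-0.58) and QKI with 50% windows (0.63). The log2 end ratio changed sign for ELAVL1 with the outer 20% (0.59), with 50% windows (0.41) and with clusters (0.24). It did so for RBFOX2 with 50% windows (-0.75) and on leaving out 1 replicate (-0.13 to 1.21), for RBFOX1 on leaving out 1 replicate (-3.12 to 1.58), for MSI2 with the 5 kb windows (1.77) and for ELAVL3 without overlapping peaks (1.81). Where peaks or a replicate were left out, the listed span was set anew for the end ratios, so the ends compared could be other regions. The causes were not tested beyond the changed windows and peaks. The alternatives on overlapping peaks, strands and 5 kb windows were added after the data had been seen. Replicate 2, with 70 peaks on the 10 transcripts, limits every statement about all 3 replicates.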

Other observations

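At the 105 loci of the 10 transcripts found in at least 2 replicates, the stretches of 4 nt that the authors' lists mark inside each peak lay a median of 24.0 nt apart between replicates (quartiles 10.0 and 39.0 nt). They lay within 10 nt of each other at 27 loci and within 20 nt at 43. Among the loci with small distances were an MSI2 locus, chr17:55759055-55759179, with 42 and 3 reads in replicates 1 and 3 and a distance of 0 nt, and an ELAVL3 locus, chr19:11588134-11588264, with 19 and 13 reads and a distance of 3 nt. The reads of this ELAVL3 locus lay in peaks that overlapped a peak of ENSG00000267477.

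Shares in replicate 3 relative to replicate 1 differed among transcripts of the same strand. The median log2 ratio was 0.58 over 2889 minus-strand gene IDs and -0.08 over 2516 plus-strand gene IDs with at least 10 reads in both. On the minus strand it was 2.98 for NOVA1, 0.60 for ELAVL3, -0.10 for ELAVL1 and -0.25 for RBFOX2. On the plus strand it was 0.12 for QKI, -0.27 for PTBP2, -0.29 for ELAVL4, -0.69 for RBFOX1 and -1.24 for MSI2. The part of the strand excess in these values was not tested.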
